A study of Oryctolagus cuniculus with 15 samples.

Results

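Of the 15 libraries in this study of primary rabbit corneal keratocytes, 6 compare an incubation in digestion medium before lysis with direct lysis on the same substrate. All 6 came from first-passage keratocytes isolated from New Zealand white rabbit eyes, plated on collagen-coated dishes and kept for 6 days in serum-free medium. In the 2D collagen-coated condition (2DC, 3 libraries) the dishes were held for 15 min in digestion medium, which contains collagenase and hyaluronidase, and were rinsed with PBS before lysis buffer was added. In the lysis control (2DC_L, 3 libraries) the buffer was put straight onto the dish. The comparison was made in the study to assess what the incubation itself does, because cells had to be freed from the collagen matrices of the other 9 libraries by the same medium (2D fibrillar collagen, 2DF, 3D fibrillar collagen with 100000 cells per matrix, 3DF, and with 50000 cells per matrix, 3DF_50, with 3 libraries each). The enzymes, the time between culture and lysis and the added rinse go together in this design and cannot be told apart. Each library is a pool of dishes from 1 experiment, and the libraries of a condition come from separate experiments. The library names start with E2, E3 and E6 for 2DC and with E2, E3 and E7 for 2DC_L. What these prefixes stand for is not given in the sources used here. Replicates 1 of both conditions carry E2 and replicates 2 carry E3.

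Immediate early genes are genes that a cell can transcribe within minutes of a stimulus, without making new protein first, because the transcription factors that drive them, such as SRF with its partners, are already present. Their products are transcription factors (the FOS and JUN families, which pair as AP-1, the EGR zinc fingers and NR4A receptors), feedback inhibitors of the signal (phosphatases of the MAP kinases), proteins that destabilise mRNA, and secreted signals. Most of their transcripts are short-lived. Keratocytes are the quiescent cells of the corneal stroma, which keep up its collagen and proteoglycan matrix and become activated after injury.

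The authors counted between 17973130 and 31804255 reads per library in these 6 libraries, and 13608 of 23428 genes passed the filter on low counts. A gene was called differentially expressed (a DEG) when its p from edgeR's quasi-likelihood test, after Benjamini–Hochberg adjustment, was no more than 0.05 and its log2 fold change was 1 or more in size, and all fold changes are 2DC vs. 2DC_L unless said otherwise. Levels are given as FPKM, read counts scaled by gene length and library size, in the order of replicates 1 to 3, and positions are those of the oryCun2 genome. Keratocyte markers were high in both conditions, with a summed level of 26413 to 32154 FPKM in 2DC and 25939 to 32596 FPKM in 2DC_L over the 8 of 10 markers found. Of the 10 corneal epithelial markers found, all were below 1 FPKM in each of the 6 libraries and KRT12 was at 0. The summed level of the 9 markers of corneal endothelium was 651 to 758 FPKM in 2DC and 697 to 966 FPKM in 2DC_L. COL8A2 was the highest, with a mean of 322 FPKM, and ZP4 was at 0. The paper reports COL8A2 among the collagen genes of its keratocyte cultures, but from libraries of this same study. That report therefore cannot show which cells the transcript came from, and COL8A2 is only a part of the sum. The sum alone does not show whether endothelial cells were present, and this was not tested. The lists for immune cells (9 markers found), vascular endothelium (7), Schwann cells (6) and myofibroblasts (5) also had overlapping ranges between the conditions. The vascular sum was 97.0 to 140 FPKM in 2DC and 93.5 to 114 FPKM in 2DC_L, with ERG as the highest. No tested marker on the 7 lists was a DEG, where 0.265% of all genes tested were. However, only 2 epithelial, 4 immune and 4 vascular markers passed the filter and were tested. Their intervals lay inside a log2 fold change of 1 for 0, 0 and 3 of them, respectively, so that changes in the others were not excluded. The same limit holds for corneal endothelium, Schwann cells and myofibroblasts. There, 4 of 8, 2 of 5 and 3 of 4 tested markers, respectively, had such intervals. In bulk samples like these, fewer cells of a type and less RNA per cell cannot be told apart.

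The digested dishes had 35 DEGs with higher expression and 1 with lower expression than the directly lysed dishes. These 36 genes were 0.265% of the genes tested, and the 35 higher ones were 0.257%. The increases were large, with a median log2 fold change of 2.77 among the 35, and they included the AP-1 subunits FOS, FOSB and JUN, the transcription factors EGR1, EGR2, EGR3 and NR4A1, the MAP kinase phosphatases DUSP1, DUSP2 and DUSP5, and the mRNA decay factor ZFP36. In 9 genes the log2 fold change was at least 4, in 14 it was between 2 and 4, and in 12 between 1 and 2. In 12 of the 35 genes the mean level in 2DC_L was below 1 FPKM. Each of the 35 had every 2DC library above every 2DC_L library, an order nearly fixed by their choice in the same 6 libraries. Of all genes tested, 7.46% showed this order and 5.47% the opposite one. By the adjusted p alone 50 genes were called (0.367% of those tested), 48 higher and 2 lower.

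**Figure D1:**
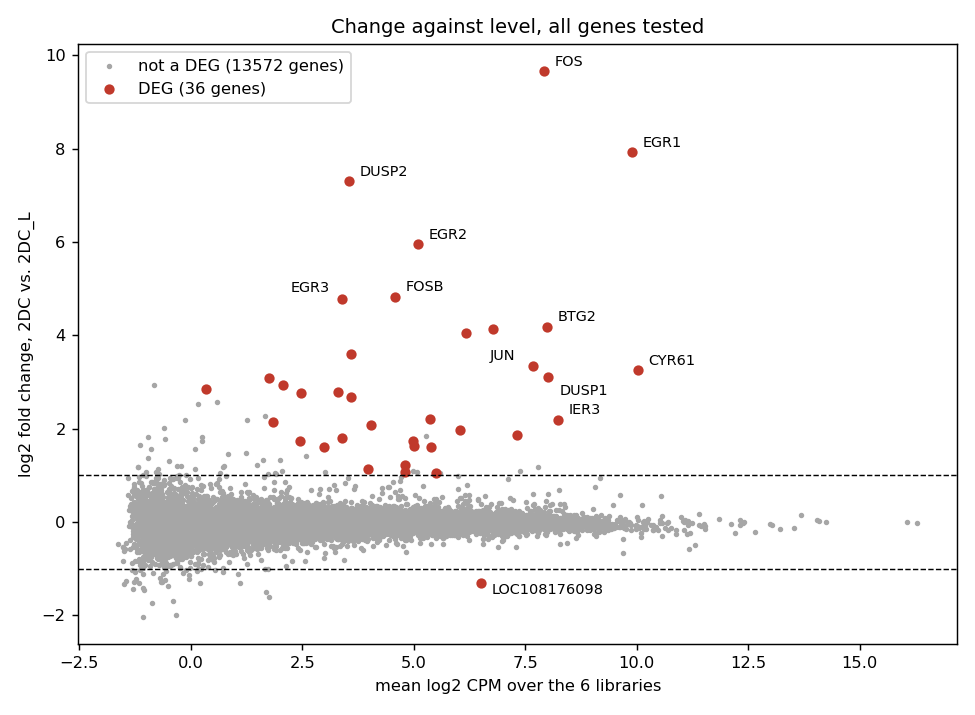
Log2 fold change of 2DC vs. 2DC_L (y axis) against the mean log2 CPM over the 6 libraries (x axis) for the 13608 genes tested. Each point is a gene, red points are the 36 DEGs and dashed lines mark a log2 fold change of 1 in either direction. The DEGs lie almost all above the upper line, with FOS at 9.66 and EGR1 at 7.93, and the 1 DEG below the lower line is LOC108176098.

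Among the AP-1 genes, FOS showed the largest change of all genes. FOS (chromosome 20, 29860066 to 29863336, minus strand) was at 237, 275 and 214 FPKM in 2DC and at 0.311, 0.251 and 0.343 FPKM in 2DC_L. The groups were far apart, and the 2DC_L libraries held only 19, 15 and 12 reads of this gene against 14704, 12802 and 9987 in 2DC. Its log2 fold change was 9.66 (SE 0.17, adjusted p = 1.32e-07), with a 95% interval from 9.26 to 10.06. FOSB, a second FOS family member (scaffold Un0309, 121963 to 125744, plus strand), was at 18.5, 19.5 and 15.1 FPKM in 2DC and at 0.696, 0.699 and 0.397 FPKM in 2DC_L, a log2 fold change of 4.83 (adjusted p = 1.01e-05, SE 0.19). JUN, the partner of both in AP-1 (chromosome 13, 107997083 to 107998198, plus strand), already stood at 29.2, 33.2 and 41.5 FPKM in the directly lysed cells and was at 339, 380.0 and 339 FPKM in 2DC, a log2 fold change of 3.35 (adjusted p = 1.12e-05, SE 0.14). The list of AP-1 subunits and partners had 7 tested members, of which these 3 were DEGs, beside 0.265% of all genes tested. Its median log2 fold change was 1.34 beside -0.005 over all genes tested. MAFF, a small MAF protein that was picked out after its values were seen, was at 7.38, 11.7 and 15.3 FPKM in 2DC and 4.59, 4.62 and 4.29 FPKM in 2DC_L and missed the threshold (log2 fold change 1.34, SE 0.27, adjusted p = 0.199).

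The 3 tested zinc finger factors of the EGR family all rose from low levels, and EGR4 had at most 1 read in any library. EGR1 (chromosome 3, 20738615 to 20742487, plus strand) was at 633, 664 and 573 FPKM in 2DC and at 2.42, 2.17 and 3.17 FPKM in 2DC_L, a log2 fold change of 7.93 (adjusted p = 2.76e-07, SE 0.18). The groups lay far apart, and EGR1 alone took 24.2% to 26.2% of the reads of the 35 higher DEGs in 2DC but 0.879% to 1.38% in 2DC_L. EGR2 (chromosome 18, 23380794 to 23387584, plus strand) rose from 0.183, 0.441 and 0.489 FPKM in 2DC_L to 19.1, 25.6 and 21.8 FPKM in 2DC, a log2 fold change of 5.96 (adjusted p = 1.31e-05, SE 0.26). EGR3 (scaffold Un0100, 14596 to 19871, plus strand) was at 3.68, 6.10 and 6.99 FPKM in 2DC against 0.174, 0.280 and 0.127 FPKM in 2DC_L, a log2 fold change of 4.78 (adjusted p = 0.00038, SE 0.33). NR4A1, an orphan nuclear receptor that is induced together with the EGR genes in many cell types, had 10.1, 9.30 and 7.72 FPKM in 2DC and 0.722, 0.998 and 0.420 FPKM in 2DC_L (log2 fold change 3.61, SE 0.25, adjusted p = 0.00038).

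SRF, the serum response factor that binds the promoters of many of these genes, was itself a DEG, at 24.7, 29.8 and 26.4 FPKM in 2DC and 6.96, 6.82 and 6.62 FPKM in 2DC_L (log2 fold change 1.98, SE 0.09, adjusted p = 1.31e-05). The Krüppel-like factors in this set were KLF4, with 28.3, 28.9 and 33.8 FPKM in 2DC against 13.03, 11.8 and 16.96 FPKM in 2DC_L (log2 fold change 1.13, SE 0.14, adjusted p = 0.0163), and LOC103345364, which RefSeq names KLF2, with 36.2, 36.8 and 34.3 FPKM in 2DC against 5.47, 3.61 and 8.05 FPKM in 2DC_L (log2 fold change 2.69, SE 0.23, adjusted p = 0.00178). The set was completed by ID3, an inhibitor of basic helix-loop-helix factors (log2 fold change 1.81, SE 0.24, adjusted p = 0.0192), and SNAI1, the Snail repressor (log2 fold change 1.63, SE 0.20, adjusted p = 0.0158). ID3 was at 12.1, 19.3 and 22.96 FPKM in 2DC and 4.998, 5.82 and 4.52 FPKM in 2DC_L, and SNAI1 at 32.9, 33.3 and 43.9 FPKM in 2DC and 13.01, 13.99 and 8.01 FPKM in 2DC_L, so that neither had overlapping groups. KLF4, ID3 and SNAI1 lost the call when some libraries were left out. The adjusted p of KLF4 was 0.0919, 0.0521, 0.138 and 0.0811 without 2DC replicate 2, 2DC replicate 3, 2DC_L replicate 1 and 2DC_L replicate 2, respectively. For SNAI1 it was 0.0701 and 0.0812 without 2DC replicate 2 and 2DC_L replicate 1, respectively, and for ID3 it was 0.123, 0.142, 0.0869 and 0.131 without 2DC replicate 2, 2DC_L replicate 1, 2DC_L replicate 2 and 2DC_L replicate 3, respectively. Over the whole list of early transcription factors, 9 of 22 tested members were DEGs, 16 had every 2DC library above every 2DC_L library and 0 had the opposite order, and the median log2 fold change was 0.99. Of all genes tested, 0.265% were DEGs, 7.46% lay above and 5.47% below.

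Among the proteins that shut off the signals to these genes, 4 were DEGs. DUSP1, DUSP2 and DUSP5 are phosphatases that inactivate MAP kinases in the nucleus. DUSP2 (chromosome 2, 95158095 to 95160072, plus strand) was at 15.1, 18.6 and 12.03 FPKM in 2DC and at 0.0867, 0.133 and 0.0378 FPKM in 2DC_L, where it had only 4, 6 and 1 reads, a log2 fold change of 7.31 (adjusted p = 1.17e-05, SE 0.30). DUSP1 (chromosome 3, 53838319 to 53841423, minus strand) was far more abundant, at 219.9, 258 and 235 FPKM in 2DC and 27.3, 32.4 and 22.2 FPKM in 2DC_L (log2 fold change 3.12, SE 0.15, adjusted p = 2.28e-05). DUSP5 stayed low in both, at 2.38, 4.05 and 3.92 FPKM in 2DC and 0.429, 0.439 and 0.482 FPKM in 2DC_L (log2 fold change 2.94, SE 0.26, adjusted p = 0.00183). SOCS1, which inhibits JAK kinases downstream of cytokine receptors, was at 13.8, 25.8 and 22.9 FPKM in 2DC and 2.96, 3.76 and 2.02 FPKM in 2DC_L (log2 fold change 2.80, SE 0.29, adjusted p = 0.00522). These 4 were the DEGs among 24 tested inhibitors of MAPK, NF-kB and cytokine signalling, a list with a median log2 fold change of 0.64. Of the 24, 13 had every 2DC library above every 2DC_L library and 0 the opposite order. The shares over all genes tested were 0.265% for DEGs, 7.46% for the first order and 5.47% for the opposite one.

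Regulators of mRNA decay, growth arrest and translation formed the next group. ZFP36 (tristetraprolin, chromosome 5, 557509 to 559104, minus strand), which binds AU-rich elements in short-lived mRNAs and promotes their decay, was at 136, 142 and 137 FPKM in 2DC and at 8.24, 8.03 and 7.11 FPKM in 2DC_L, a log2 fold change of 4.14 (adjusted p = 2.08e-07, SE 0.09). Its relatives were not DEGs, with ZFP36L2 past the adjusted p at 0.58 (SE 0.07) from a level of 36.6 ± 1.88 FPKM in 2DC_L. The antiproliferative gene BTG2 (chromosome 16, 68471435 to 68474882, minus strand) was at 223, 209 and 177 FPKM in 2DC and 12.1, 10.96 and 10.4 FPKM in 2DC_L (log2 fold change 4.19, SE 0.12, adjusted p = 1.54e-06), and the related TOB1 and TOB2 had log2 fold changes of 0.57 and 0.72 that passed the adjusted p. IER2 was at 99.3, 102 and 91.9 FPKM in 2DC against 5.91, 6.72 and 4.84 FPKM in 2DC_L, a log2 fold change of 4.05 (adjusted p = 1.54e-06, SE 0.12). IER3 (chromosome 12, 22766159 to 22767334, minus strand) was already abundant in the directly lysed cells, at 113, 117 and 91.98 FPKM in 2DC_L, and reached 448, 494 and 541 FPKM in 2DC (log2 fold change 2.20, SE 0.12, adjusted p = 7e-05). GADD45G, a stress-responsive growth arrest gene, was at 11.6, 13.4 and 16.4 FPKM in 2DC and 4.23, 4.33 and 5.03 FPKM in 2DC_L (log2 fold change 1.61, SE 0.16, adjusted p = 0.00488). Altogether 6 of the 22 tested members of this list were DEGs, beside 0.265% of all genes tested. In 15 of the 22 every 2DC library lay above every 2DC_L library and in 0 below, beside 7.46% and 5.47% of all. The list median of the log2 fold change was 0.76.

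PPP1R15A (GADD34), which directs protein phosphatase 1 to the translation factor eIF2α, was at 45.1, 49.1 and 48.5 FPKM in 2DC and 14.9, 13.7 and 14.5 FPKM in 2DC_L (log2 fold change 1.73, SE 0.08, adjusted p = 1.38e-05). A further DEG, LOC103346344, lies beside it on the same strand of scaffold Un0331 (135682 to 137076 for PPP1R15A, 137130 to 139105 for LOC103346344 in oryCun2), carries the same description and has the RefSeq symbol PPP1R15A. Its log2 fold change was 1.61. Whether the pair are parts of 1 gene was not tested, and both counts are uncertain for that reason. DDIT3 (CHOP), a transcription factor of the same stress pathway, was at 31.1, 32.9 and 36.3 FPKM in 2DC and 12.5, 16.004 and 14.6 FPKM in 2DC_L (log2 fold change 1.22, SE 0.11, adjusted p = 0.00184). The list of endoplasmic reticulum stress and integrated stress response genes does not hold PPP1R15A, which is on an early response list. DDIT3 was the only DEG among its 18 tested genes, whose median log2 fold change was 0.06. Every 2DC library lay above every 2DC_L library in 6 of the 18 and below in 2. Over all genes tested these shares were 7.46% and 5.47%, and 0.265% were DEGs.

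**Figure D2:**
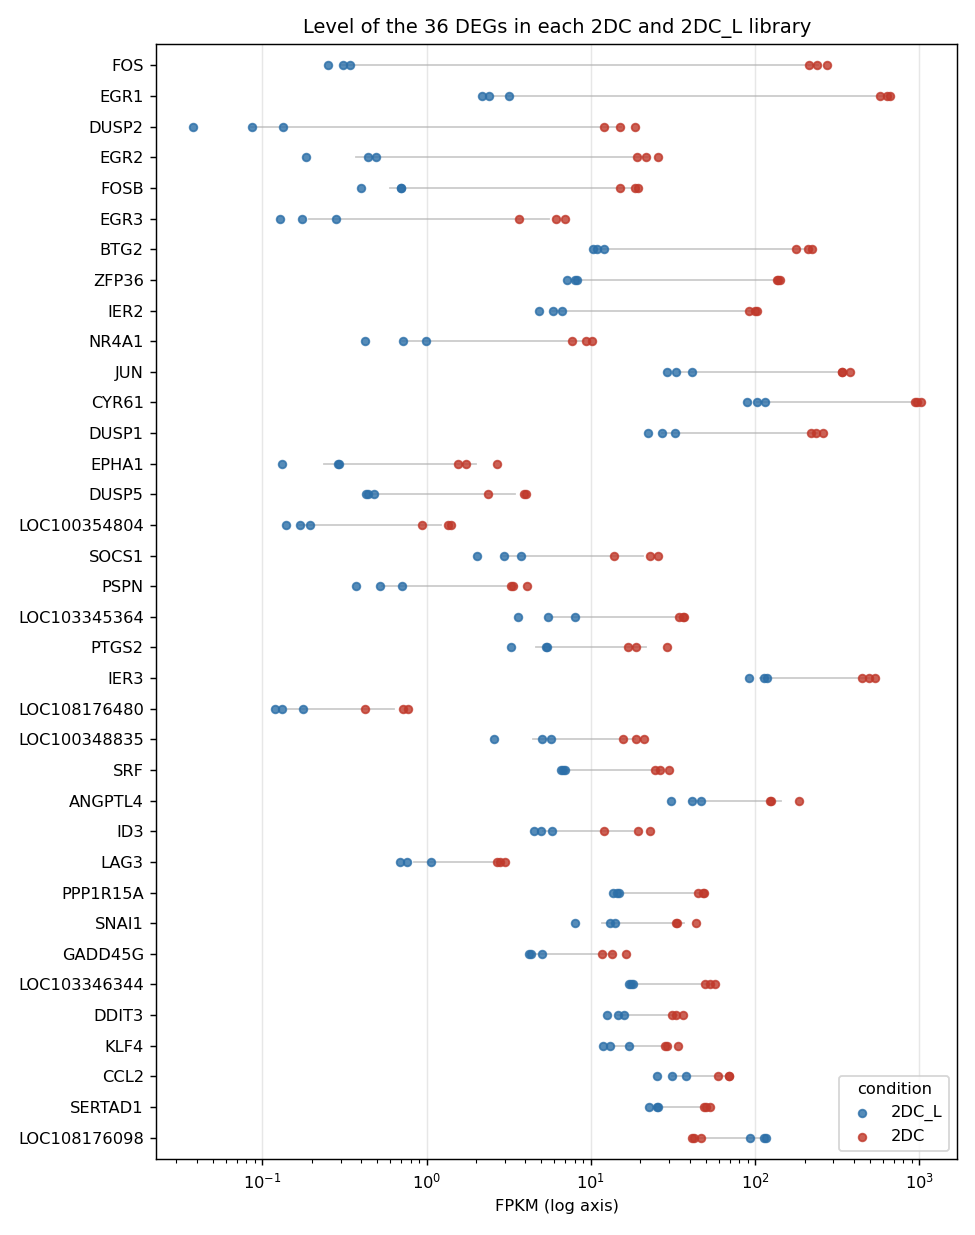
FPKM (x axis, log scale) of the 36 DEGs (y axis, ordered by log2 fold change) in each of the 3 2DC libraries (red) and the 3 2DC_L libraries (blue), with a grey line joining the means. FOS and EGR1 stand out with the widest gaps, no gene has overlapping groups, and LOC108176098 at the bottom is the 1 gene with the red points on the left.

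Among secreted products, CYR61 (CCN1, a matricellular protein that binds integrins, chromosome 13, 79255269 to 79258198, minus strand) reached the highest level of all DEGs. It was at 941, 1024 and 972 FPKM in 2DC and at 89.6, 103 and 114 FPKM in 2DC_L, a log2 fold change of 3.26 (adjusted p = 5.38e-06, SE 0.12). CYR61 took 24.6% to 25.9% of the reads of the 35 higher DEGs in 2DC, and 24.9% to 31.5% in 2DC_L. PTGS2 (cyclooxygenase-2, which makes prostaglandin precursors) was at 16.8, 18.7 and 29.2 FPKM in 2DC and 3.27, 5.39 and 5.32 FPKM in 2DC_L (log2 fold change 2.22, SE 0.25, adjusted p = 0.00921), with an adjusted p of 0.0567 without 2DC_L replicate 3. The monocyte chemoattractant CCL2 was at 69.2, 59.6 and 69.5 FPKM in 2DC and 25.2, 37.7 and 31.3 FPKM in 2DC_L (log2 fold change 1.07, SE 0.15, adjusted p = 0.0234), and it kept its call in 1 of the 6 fits without a library, with an adjusted p of 0.0672, 0.0798, 0.0788, 0.0568 and 0.132 without 2DC replicate 1, 2DC replicate 2, 2DC replicate 3, 2DC_L replicate 1 and 2DC_L replicate 3, respectively. EDN1 (endothelin-1) passed the adjusted p with 0.57. CXCL8 (interleukin-8), picked out after its values were seen, was at 25.3, 39.04 and 64.1 FPKM in 2DC and 7.85, 15.3 and 12.6 FPKM in 2DC_L and was not a DEG (log2 fold change 1.84, SE 0.35, adjusted p = 0.151). In this list 3 of 20 tested genes were DEGs, beside 0.265% of all genes tested. In 5 of the 20 every 2DC library lay above every 2DC_L library and in 0 below, beside 7.46% and 5.47% of all. The list median of the log2 fold change was 0.49.

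Counted together, the 5 lists of early response genes held 95 tested genes, with 25 DEGs higher and 0 lower in 2DC, where 0.265% of all genes tested were DEGs. In 53 of the 95 every 2DC library lay above every 2DC_L library and in 0 below, beside 7.46% and 5.47% of all genes. The median log2 fold change was 0.72 in these lists. It was -0.02 in the 266 tested genes of the other lists (cell type markers apart) that are on no early response list. Of these 266, 1, DDIT3, was a DEG. BTG2 and CYR61, which are DEGs on both kinds of list, were counted with the early response genes only. The lists were chosen with earlier results of these data known and their counts are a description. Reads of the early response genes made up 1.18%, 1.28% and 1.42% of all counted reads in the 2DC libraries and 0.476%, 0.495% and 0.583% in the 2DC_L libraries. The means were 1.30 ± 0.122% and 0.518 ± 0.0569% (SD, n = 3), with no overlap (exact permutation test, two-sided, p = 0.1, the smallest that 3 against 3 libraries allow). For the 35 DEGs alone, whose choice fixes the direction, the share was 0.750 ± 0.0261% in 2DC and 0.0718 ± 0.00494% in 2DC_L.

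**Figure D3:**
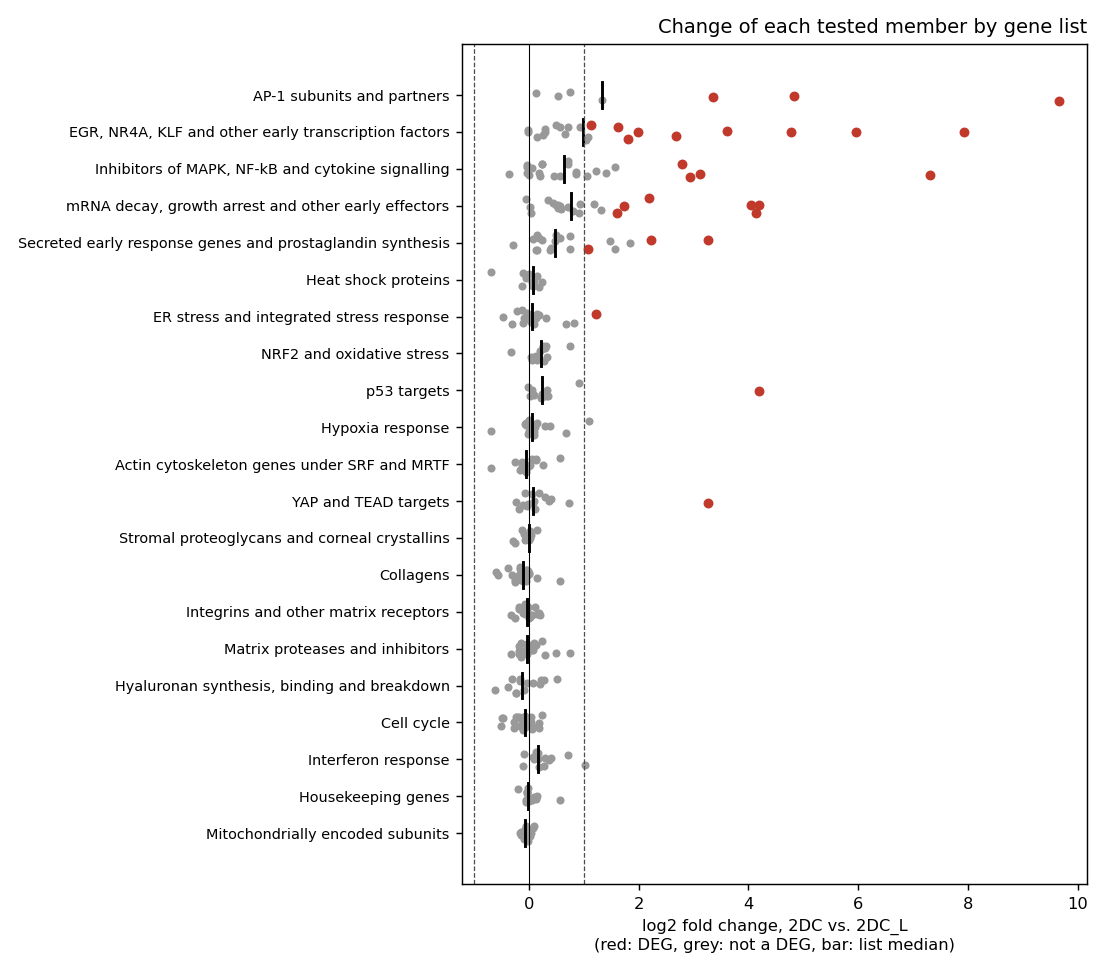
Log2 fold change of 2DC vs. 2DC_L (x axis) for each tested member of 21 gene lists (y axis). Each point is a gene, red for DEGs and grey for the others, black bars are list medians and dashed lines mark a log2 fold change of 1 in either direction. The 5 lists at the top are the early response lists, with medians from 0.49 to 1.34, and the lists below them centre near 0. CYR61 and BTG2 appear again among the YAP and p53 targets.

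The remaining DEGs with a symbol belong to no early response list. ANGPTL4, a secreted inhibitor of lipoprotein lipase (scaffold Un0069, 338446 to 343416, minus strand), was at 186, 124 and 123 FPKM in 2DC and 46.8, 41.3 and 30.7 FPKM in 2DC_L (log2 fold change 1.86, SE 0.21, adjusted p = 0.00839). SERTAD1, a transcriptional coregulator, lay just past the fold limit with a log2 fold change of 1.04 (adjusted p = 0.000647, SE 0.08), and its neighbour on the scaffold, SERTAD3, just inside it with 0.88 (SE 0.10, adjusted p = 0.00726). The other 3 were low in both conditions. PSPN (persephin, a ligand of the GDNF family) was at 3.27, 4.10 and 3.34 FPKM in 2DC and 0.371, 0.518 and 0.711 FPKM in 2DC_L (log2 fold change 2.77, SE 0.24, adjusted p = 0.00178). EPHA1, an ephrin receptor, was at 1.56, 1.74 and 2.70 FPKM in 2DC and 0.132, 0.292 and 0.288 FPKM in 2DC_L (log2 fold change 3.09, SE 0.36, adjusted p = 0.00944), and LAG3, a receptor best known from T cells, was at 2.83 ± 0.142 FPKM in 2DC and 0.841 ± 0.203 FPKM in 2DC_L (log2 fold change 1.73, SE 0.20, adjusted p = 0.00921). ANGPTL4 had an adjusted p of 0.0609 without 2DC_L replicate 2 and EPHA1 of 0.0532 without 2DC_L replicate 3. For LAG3 the adjusted p was 0.074 and 0.0766 without 2DC replicate 2 and 2DC_L replicate 1, respectively. The log2 fold change of SERTAD1 was 0.99 without 2DC_L replicate 3 and 0.95 with the E2 and E3 libraries alone, and with all 5 conditions and the prefix as a block its adjusted p was 0.164. The last 3 of the 35 higher DEGs have no symbol in the gene table and are described there as permeability factor 2, as a histone and not at all. Each of the 3 lost the call in 3 to 5 of the 6 fits without a library. Smaller changes past the adjusted p, all higher in 2DC, were found in H3F3B (histone H3.3, 0.60), PPP1R10 (0.51), PPP1R15B, the constitutive relative of PPP1R15A (0.47), PNRC1 (0.58) and the splicing factor SRSF2 (0.52). LOC100342501, described as polyubiquitin-C and picked out after its values were seen, was at 999.8 ± 17.4 FPKM in 2DC and 521.6 ± 3.72 FPKM in 2DC_L (log2 fold change 0.94, SE 0.07, adjusted p = 0.000935). LOC108177622 (0.71) and LOC108178964, which have no description, also passed the adjusted p.

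Only 2 genes passed the adjusted p with lower expression in 2DC. LOC108176098 (scaffold Un0416, 166001 to 167264, minus strand), whose description in the gene table is Protein TAR1, was at 42.3, 41.6 and 46.9 FPKM in 2DC and 92.7, 114 and 117 FPKM in 2DC_L, a log2 fold change of -1.30 (adjusted p = 0.000793, SE 0.10). It was called in each of the 6 fits without a library but not when all 5 conditions were fitted together, with or without the prefix of the library names as a block. In the matrix conditions it varied widely between libraries, from 48.6 to 192.04 FPKM in 2DF and from 15.8 to 92.7 FPKM in 3DF. ZFC3H1, a zinc finger protein of the nuclear RNA exosome pathway, was at 6.72, 6.63 and 6.69 FPKM in 2DC and 9.05, 9.01 and 9.75 FPKM in 2DC_L (log2 fold change -0.47, SE 0.06, adjusted p = 0.0222).

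The genes that define the keratocyte and its matrix were not called. COL1A1 was at 20929.8, 18084 and 14233 FPKM in 2DC and 19544, 16792 and 17361 FPKM in 2DC_L, with a log2 fold change of -0.01 (95% interval -0.43 to 0.40), and none of 25 tested collagen genes was a DEG. The stromal proteoglycans decorin (DCN) and lumican (LUM) had log2 fold changes of 0.03 (95% interval -0.29 to 0.34) and 0.15 (95% interval -0.15 to 0.44). Of 11 tested proteoglycan and corneal crystallin genes 0 were DEGs, and for 10 of them the 95% interval lay inside a log2 fold change of 1 in either direction. The enzymes of the digestion medium cut collagen and hyaluronan outside the cell. Among genes of this matrix, 0 of 26 matrix proteases and inhibitors, 0 of 23 integrins and other matrix receptors and 0 of 14 genes of hyaluronan synthesis, binding and breakdown were DEGs. Their intervals lay inside 1 for 20, 21 and 10 genes, respectively. Over all genes tested 0.265% were DEGs, so 0 in lists of this size is near that share. The same holds for the collagen and the proteoglycan and crystallin lists. MMP2 had a log2 fold change of 0.10 (95% interval -0.17 to 0.37), ITGB1 of -0.03 (95% interval -0.30 to 0.23) and the hyaluronan-degrading CEMIP of -0.30 (95% interval -0.72 to 0.12).

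Lists for other kinds of stress held few or no DEGs. With 0.265% of all genes tested called, 0 in a list of this size is near that share. Of 13 heat shock genes 0 were DEGs and 12 had intervals inside 1, with HSP90AB1 at 0.05 (95% interval -0.21 to 0.32) and HSPB1 at -0.12 (95% interval -0.36 to 0.12). None of 14 tested NRF2 and oxidative stress genes was a DEG either, though HMOX1 (heme oxygenase-1) varied widely, at 344, 448 and 551 FPKM in 2DC and 290.2, 385 and 123 FPKM in 2DC_L, and its 95% interval from -0.10 to 1.59 leaves room for a change past the limit. Among 18 hypoxia genes 0 were DEGs, and BNIP3 stood at -0.05 (95% interval -0.21 to 0.11). The DEG ANGPTL4 was on none of the lists, the hypoxia list included. Neither the 29 cell cycle genes, the 15 interferon response genes nor the 13 mitochondrially encoded subunits had a DEG. Intervals lay inside 1 for 14, 11 and 13 of them, respectively, so that for many cell cycle genes a change past the limit was not excluded. The mitochondrial genes took 1.83% of reads in 2DC and 1.95% in 2DC_L. The only DEG among 12 p53 targets was BTG2, and the only one among 16 YAP and TEAD targets was CYR61. Every 2DC library lay above every 2DC_L library in 4 of the 12 p53 targets and 3 of the 18 hypoxia genes. The same held for 1 of the 13 heat shock genes and 0 of the 14 NRF2 and oxidative stress genes. The opposite order was found in 0, 0, 1 and 0 genes of these 4 lists. Of all genes tested, 7.46% lay above and 5.47% below.

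Actin genes under SRF and its MRTF cofactors are a further set of SRF targets. None of the 16 tested was a DEG, beside 0.265% of all genes tested, and the list median was -0.04. The highest of them, ACTB (β-actin), was at 1034, 1126 and 1164 FPKM in 2DC and 718, 739 and 798 FPKM in 2DC_L, with no overlap, a log2 fold change of 0.56 (adjusted p = 0.0701, SE 0.09). ACTB is also on the list of housekeeping genes, where 0 of 15 were DEGs and all 15 intervals lay inside 1. RHOB, an early response GTPase of the cytoskeleton that was picked out after its values were seen, was at 138, 139 and 133 FPKM in 2DC and 45.2, 47.1 and 89.5 FPKM in 2DC_L, where replicate 3 was well above the others (log2 fold change 1.18, SE 0.24, adjusted p = 0.196).

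Over all genes, the intervals bound the size of most changes. The 95% interval of the log2 fold change lay inside 1 in either direction for 84.6% of the 13608 genes tested, inside 2 for 98.4% and inside 0.5 for 60.4%. Of the 11322 genes with a mean of at least 1 FPKM in a condition, 94.1% had an interval inside 1. At an unadjusted p below 0.05, 510 of the 13608 genes were higher and 270 lower in 2DC. A fraction of about 0.05 of the genes would pass this threshold with no change at all. The higher DEGs were short genes, with a median span from start to end of 3105 bases beside 22414 bases for all genes tested, and 82.9% of them spanned less than 10000 bases beside 31.1% of all. Of the 35 higher DEGs, 23 were called in each of the 6 fits that left out a library, and 27 in each of 12 other fits. The other 12 lost the call in at least 1 of the 6 fits, and leaving out 2DC replicate 2 or 2DC_L replicate 3 lost the most, 8 each. As a description of the same libraries that chose these genes, the log2 ratio of 2DC to 2DC_L among libraries with the prefix E2 was above 1 for 34 of the 35 (lowest 0.96), and with the prefix E3 for 33 (lowest 0.65).

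The matrix libraries were all digested before lysis as well, in tubes on a rocker followed by centrifugation, so the same genes were read in them beside 2DC and 2DC_L. The comparisons share the 2DC libraries, and values are set side by side only. DEGs were 4.96% of genes tested between 2DF and 2DC, 7.56% between 3DF and 2DC and 11.6% between 3DF_50 and 2DC. Reads of the 5 early response lists took 1.81% to 2.03% of the total in 2DF, 1.32% to 2.28% in 3DF and 1.39% to 1.69% in 3DF_50, so that each of the 12 digested libraries lay above the 3 directly lysed ones, with a highest value of 0.583% there. In 3DF, replicate 2 (2.28%) stood well above the other libraries at 1.39% and 1.32%.

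**Figure D4:**
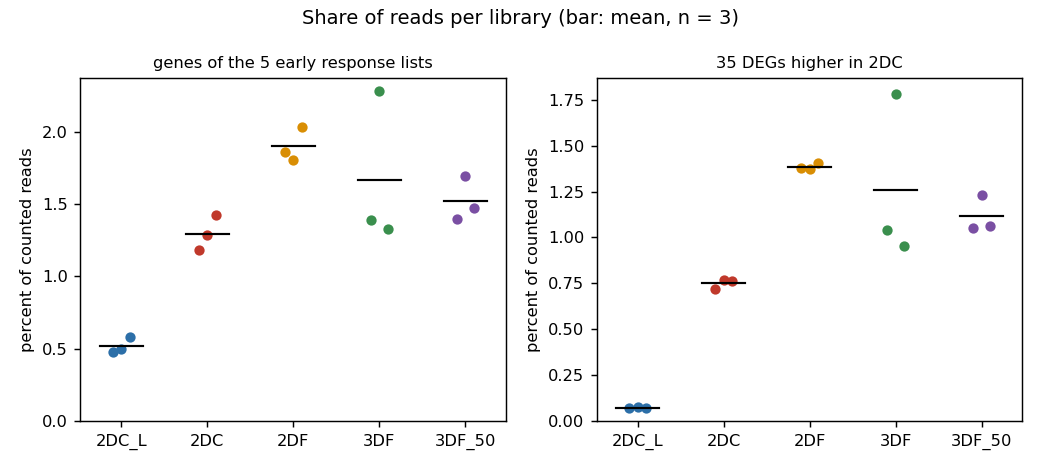
Percent of counted reads (y axis) in each library of the 5 conditions (x axis) for the genes of the 5 early response lists (left) and for the 35 DEGs higher in 2DC than in 2DC_L (right). Points are libraries and bars are means (n = 3). On the left the 2DC_L libraries lie at 0.476% to 0.583% and all others at 1.18% or above. The direction between 2DC and 2DC_L on the right is fixed by the choice of genes.

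Some of the genes were higher still in the matrices. FOS was at 689, 792 and 876 FPKM in 2DF, 809, 1361 and 688 FPKM in 3DF and 540.5, 648 and 671 FPKM in 3DF_50, and its log2 fold change against 2DC was 1.71 (SE 0.14, adjusted p = 0.000234), 1.97 (SE 0.26, adjusted p = 0.00179) and 1.36 (SE 0.13, adjusted p = 8.6e-05), respectively. FOSB, at 17.7 ± 2.32 FPKM in 2DC, was at 290.2 ± 26.9, 360.3 ± 162 and 219 ± 34.1 FPKM (mean ± SD, n = 3) in 2DF, 3DF and 3DF_50. KLF4 stood at 149.5 ± 19.1, 179 ± 65.1 and 112 ± 26.9 FPKM in the matrices beside 30.3 ± 2.99 FPKM in 2DC, a log2 fold change of 2.31, 2.55 and 1.88. The secreted CCL2 and ANGPTL4 were higher by 1.78 and 2.00 in 2DF, 1.90 and 2.53 in 3DF and 2.26 and 2.56 in 3DF_50 (log2 fold changes vs. 2DC). For these 5 genes all 3 comparisons with 2DC were DEG calls, and they were not lost when any 1 library was left out.

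Other genes were not called higher in the matrices, or were lower in some of them. EGR1 was at 623 ± 46.2, 898 ± 114, 774 ± 214 and 662 ± 32.5 FPKM in 2DC, 2DF, 3DF and 3DF_50, with log2 fold changes of 0.53 (SE 0.13, adjusted p = 0.0278), 0.30 and 0.09 against 2DC and no DEG. IER3 was within -0.09 to 0.06 of 2DC on the log2 scale. CYR61 was near its 2DC level in 2DF (959 ± 165 FPKM, log2 fold change -0.02) but stood at 195 ± 126 FPKM in 3DF and 148 ± 30.8 FPKM in 3DF_50, beside 102 ± 12.4 FPKM in 2DC_L, with log2 fold changes against 2DC of -2.33 (SE 0.41, adjusted p = 0.00668) and -2.72 (SE 0.16, adjusted p = 7.42e-06). GADD45G was at 5.53 ± 0.839, 2.77 ± 1.23 and 2.49 ± 0.338 FPKM in 2DF, 3DF and 3DF_50, beside 13.8 ± 2.39 FPKM in 2DC and 4.53 ± 0.437 FPKM in 2DC_L, with log2 fold changes against 2DC of -1.31 (SE 0.19, adjusted p = 0.00279), -2.34 (SE 0.34, adjusted p = 0.00276) and -2.47 (SE 0.19, adjusted p = 3.09e-05). EDN1, at 29.8 ± 1.58 FPKM in 2DC, varied widely in 2DF, at 20.7, 27.9 and 77.6 FPKM (log2 fold change vs. 2DC 0.50, no DEG), and was at 2.30 ± 1.40 FPKM in 3DF and 0.471 ± 0.228 FPKM in 3DF_50 (log2 fold changes vs. 2DC of -3.70 and -5.99). In these genes the culture format and the handling of the matrices change together and cannot be told apart.

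**Figure D5:**
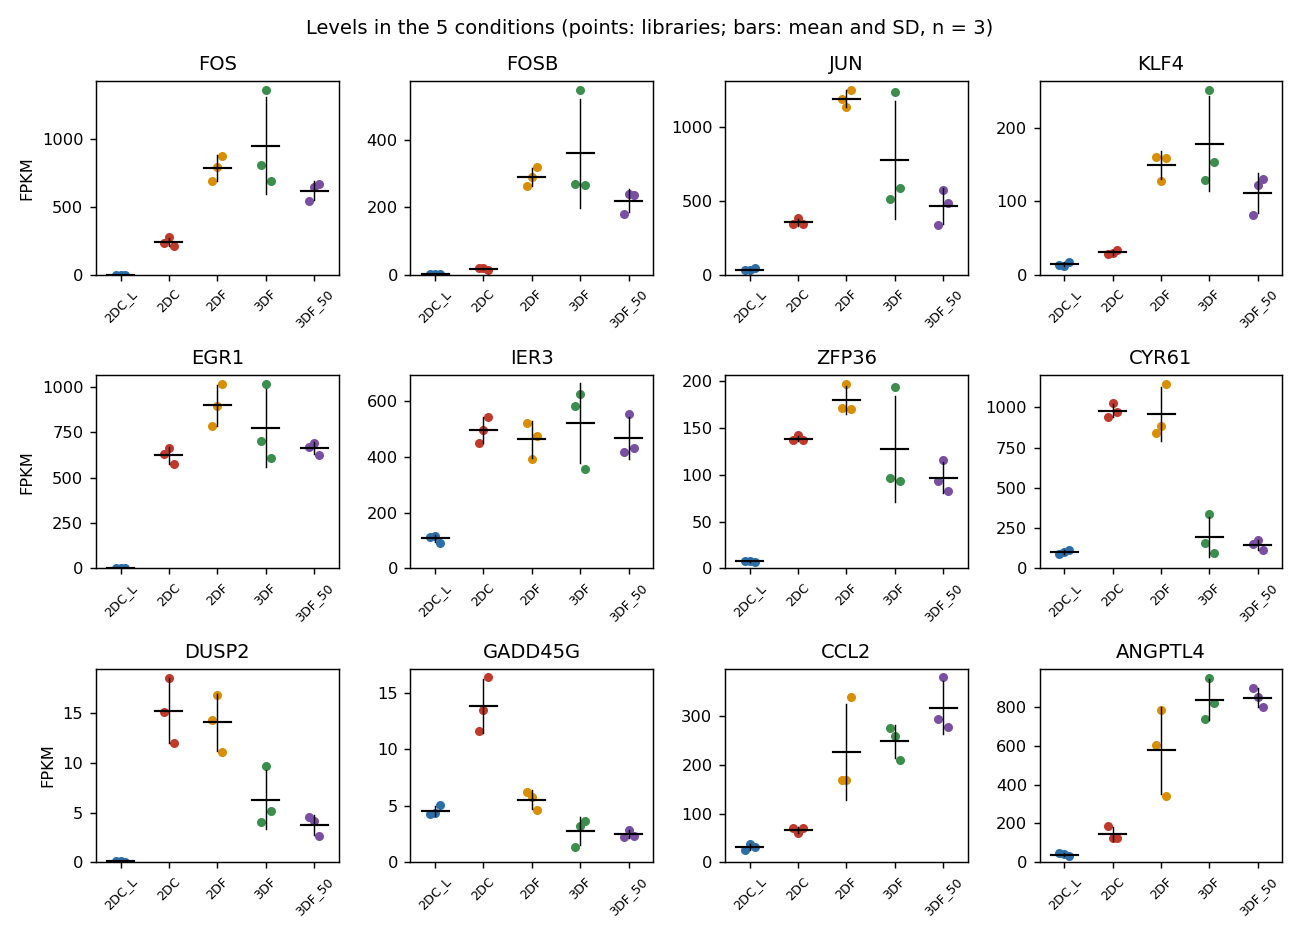
FPKM (y axis) of 12 DEGs of 2DC vs. 2DC_L in the 5 conditions (x axis). Points are libraries, horizontal bars are means and vertical bars SDs (n = 3). FOS, FOSB, JUN and KLF4 have higher means in the 3 matrix conditions than in 2DC, and CYR61, DUSP2 and GADD45G have lower means in 3DF and 3DF_50 than in 2DC.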

How the data were processed

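Bulk RNA-seq of rabbit corneal keratocytes was analysed, with the 3 libraries of 2DC and the 3 of 2DC_L in the fit of 2DC vs. 2DC_L. Each matrix condition was fitted with 2DC alone. The deposited gene counts are unscaled, and the authors obtained them with featureCounts 1.5.0-p3 after alignment to oryCun2 by HISAT2 2.0.5. The strand setting is not given in the sources used here. The deposited FPKM values are these counts scaled by gene length and library size by the authors, and were used for levels and in the limma alternatives. Groups were read from the library labels. The table holds 23428 genes, 15408 of them with a symbol, and RefSeq (mOryCun1.1) was used for further names only.

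Tests were two-sided quasi-likelihood F tests in edgeR 4.0.16 (R 4.3.3) with TMM and filterByExpr (minimum count 10), with Benjamini–Hochberg adjustment over the 13608 genes tested. The SE is the log2 fold change divided by the square root of F. 95% intervals use 8.09 degrees of freedom. The test was run on simulated data first. DESeq2 1.42.0 and limma 3.58.1 were alternatives. The genes named are every DEG with a symbol, up to 2 DEGs without one in each direction, the 10 symbols with the smallest p among smaller changes in each direction, and list members past the adjusted p or, where there were none, those with the highest levels. The comparison, gene lists and rules were chosen with earlier results of these data known. The alternatives were other scalings, filters and models, a block for the replicate number or the prefix of the library names, the E2 and E3 libraries alone, other thresholds, and leaving out each library. Promoter motifs were not analysed here. Python 3.11.15 with pandas 2.3.3 and matplotlib 3.10.9 made the tables and figures.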

Additional observations from a re-analysis of the deposited data

How the results depend on the processing

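FOS, EGR1, CYR61 and the other DEGs kept their direction under all 18 alternatives run for each gene, values of uncalled genes near 0 changed sign in 15 cases, and the calls of DEGs held in 597 of 648 gene and setting pairs. The count of 36 DEGs (35 higher, 1 lower) was 49 with DESeq2, 41 without a filter, 40 with limma on log2(FPKM + 0.1), 34 with all 5 conditions in the fit, and 23 with a log2 fold change of at least 2, all of them higher. Without 1 library it was 28 to 38, with 27 to 37 higher and 1 lower, and 21 to 26 in the early response lists. Genes past the adjusted p, 50 in all, were 91 with DESeq2, 33 at an adjusted p of at most 0.01, and 29 to 48 without 1 library, lowest without 2DC replicate 2 (29) and 2DC_L replicate 1 (32). The genes lower in 2DC were 0 with all 5 conditions in the fit, also with the name prefix as a block, 0 with a log2 fold change of at least 2, and 2 with limma on log2(FPKM + 0.1). The other lists, without genes that are also on an early response list, had 1 DEG. They had 2 with the replicate number as a block and 0 with a log2 fold change of at least 2. With library totals that leave out the 10 largest genes, the difference in the share of early response reads was 1.04 in place of 0.778 percentage points. The cause of these shifts was not tested. Same-numbered libraries share a name prefix in replicates 1 and 2 but not in 3 (deviations from the condition means correlated at r = 0.32, 0.064 and 0.11 over genes, and 2DC_L replicate 2 slightly more with 2DC replicate 3, at 0.070), and with the replicate block there were 37 DEGs (36 higher, 1 lower), with CCL2, ID3 and SNAI1 lost. With 3 libraries per condition the share of intervals inside 1 was 76.96% to 80.31% when 1 library was left out, and 60.9% when genes of low count were kept. For many genes of low count a change of this size was not excluded.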

Other observations

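Of the histone genes, 2 passed the adjusted p, both higher in 2DC, and 1 of them was a DEG. The histone genes were picked out by their description in the gene table after their values were seen. Of 94 such genes 22 were tested. Among the 22, 12 had an unadjusted p below 0.05 and all of these were higher in 2DC, beside 510 higher and 270 lower of all 13608 genes tested. Of the same 22, 11 had every 2DC library above every 2DC_L library and 0 below, beside 7.46% and 5.47% of all genes tested. The share of DEGs over all genes tested was 0.265%. The median log2 fold change of the 22 was 0.64. Past the adjusted p were H3F3B, a replication-independent H3.3 gene, at 203, 188 and 203 FPKM in 2DC and 131, 132 and 129.8 FPKM in 2DC_L (log2 fold change 0.60, SE 0.07, adjusted p = 0.0129), and LOC100348835, at 15.7, 18.9 and 21.1 FPKM in 2DC and 2.56, 5.70 and 5.06 FPKM in 2DC_L (log2 fold change 2.07, SE 0.26, adjusted p = 0.0164). The gene table describes the latter as histone H2B type 1-M and RefSeq names it H1-4, so its identity is uncertain, and its call was lost in 3 of the 6 fits without a library. LOC100353691, described as histone H2A type 2-A, had a log2 fold change of 2.26 (adjusted p = 0.051, SE 0.35). Some histone genes are near-identical copies, and reads shared between such copies may have been counted for one or for several. On the cell cycle list 0 of 29 tested genes had an unadjusted p below 0.05, beside 510 higher and 270 lower of all 13608 genes tested. In a list of this size 0 is not far from that share. Intervals of the log2 fold change lay inside 1 in either direction for 14 of the 29, so changes in the others were not excluded. Whether the histone changes go with cell division was not tested.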
